A study of Rattus norvegicus with 10 samples.

Results

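Transforming growth factor beta (TGF-beta) signalling was examined through 10 genes: the ligands Tgfb1, Tgfb2 and Tgfb3, the receptors Tgfbr1, Tgfbr2 and Tgfbr3, and the Smads Smad2, Smad3, Smad4 and Smad7. They were chosen by name, as the RNA record rows carrying these symbols, and each symbol had exactly 1 row among the 32041 RNA records counted. Messenger RNA had been sequenced from tissue containing the CA3 field and dentate gyrus of the left hippocampus of adult male Sprague-Dawley rats, collected 3 months after surgery. The 5 TBI rats had received lateral fluid percussion, a traumatic brain injury made by a pulse of fluid pressure (3.32 atm) on the dura, whereas the 5 sham rats had the same anaesthesia and the same craniectomy over the left parietal lobe without the pulse. No genetic modification and no treatment besides surgery and anaesthesia is named for either group. The methods of the study name fewer controls for mRNA profiling than the labels do, and every rat labelled sham was used here. The methods describe no seizure monitoring of the injured rats used here, so the TBI group is defined by the injury and not by epilepsy.

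TGF-beta ligands are secreted in a latent form and must be released before they act. The free ligand brings the type II receptor Tgfbr2 together with the type I receptor Tgfbr1, which phosphorylates Smad2 and Smad3, and these enter the nucleus with the shared partner Smad4. Smad7 is induced by the pathway and holds it back at the receptor. In the brain, microglia are a known source of Tgfb1 and depend on TGF-beta signalling for their adult state, and albumin that leaks through an injured blood-brain barrier is known to activate TGF-beta receptors on astrocytes.

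Each library held 23425817 to 31671838 counts on RNA records. Ribosomal RNA rows took 59.0% of the counts in sham replicate 4 and 58.5% in sham replicate 5, against 12.5% to 26.2% in the other 8 rats, and no TBI library had so high a share. Levels are given as CPM, that is counts scaled to a common library size with the trimmed mean of M-values (TMM), and changes as log2 of TBI over sham. In edgeR's quasi-likelihood test over 22431 rows, 0 rows (0%) passed a Benjamini-Hochberg adjusted p of 0.05. DESeq2 gave 3 rows, limma voom 0 and edgeR's exact test 68. At an unadjusted p under 0.05, 4.89% of rows were higher in TBI and 3.00% were lower. The ranges of the groups did not overlap for 0.923% of rows. In bulk tissue, fewer cells of a type and less RNA per cell cannot be told apart.

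Of the 10 genes, 0 passed the adjusted threshold by edgeR's quasi-likelihood test. The count was also 0 with DESeq2, with limma voom and with edgeR's exact test. One gene, Tgfb1, had an unadjusted p under 0.05, and it was higher in TBI, which is 1 of 10 against the 4.89% of all rows. The genes were chosen with earlier results of these data known, so this comparison is not independent of those results. The groups overlapped in all 10 genes. The median log2 change was 0.06 over the 10 genes and 0.01 over the 9 genes other than Tgfb1, beside -0.01 over all rows tested.

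**Figure D1:**
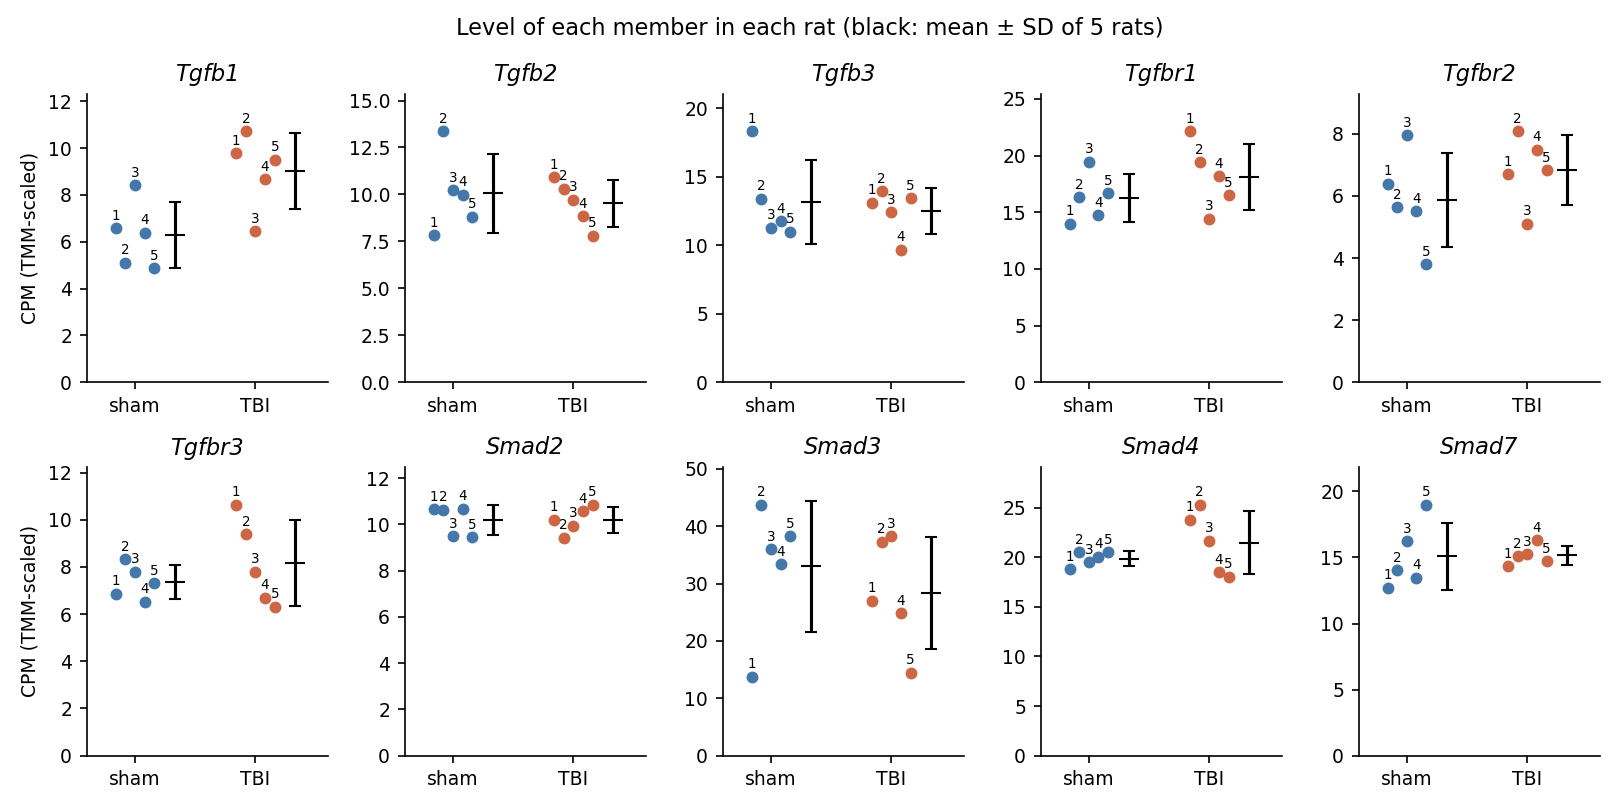
Level of each of the 10 genes (vertical axes, TMM-scaled CPM) in each sham and TBI rat, with 1 point per rat labelled by its replicate number and the mean ± SD of 5 rats in black. For Tgfb1, 4 of the 5 TBI rats lie above the highest sham rat, and for Smad3 the points of both groups spread widely.

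Tgfb1 encodes the ligand most often linked to injury responses. Its level was 6.59, 5.10, 8.42, 6.39 and 4.87 CPM in sham replicates 1 to 5. In TBI replicates 1 to 5 it was 9.77, 10.7, 6.45, 8.67 and 9.50 CPM. In the injured group, 4 of 5 rats exceeded the highest sham rat, while TBI replicate 3 lay within the sham range. Sham rats averaged 6.27 CPM ± 1.42 and TBI rats 9.02 CPM ± 1.61 (SD, n = 5 each). The fitted change was 0.51 on the log2 scale (SE 0.153), or 1.43-fold with a 95% confidence interval from 1.14 to 1.78. Its unadjusted p in edgeR's quasi-likelihood test was 0.00360 and its adjusted p was 0.483. These levels rest on 78 to 403 counts per library. With the ribosomal RNA share as a covariate the change was 0.40 (edgeR unadjusted p = 0.0564). Without sham replicates 4 and 5 it was 0.43 (edgeR unadjusted p = 0.0251). The study itself lists Tgfb1 as upregulated in its TBI model, with an edgeR adjusted p under 0.05. That list comes from the same series. Its methods name fewer controls than were used here, and a negative binomial edgeR test with Bayesian shrinkage. By edgeR's exact test on the rats used here, the adjusted p of Tgfb1 was 0.150. The cause of the difference from the study was not tested.

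Tgfb2, a ligand of the same receptors, was measured at 7.84, 13.4, 10.2, 9.99 and 8.81 CPM in the sham rats. The TBI rats had 10.9, 10.3, 9.71, 8.86 and 7.80 CPM. All of these lay below sham replicate 2, and the remaining sham rats were spread among them. The log2 change was -0.08 (SE 0.132, 95% confidence interval from -0.36 to 0.19). Tgfb3, the third ligand, was at 18.3 CPM in sham replicate 1 and between 11.00 and 13.4 CPM in the other sham rats, beside 9.68 to 13.9 CPM in the TBI rats. Its log2 change was -0.08 (SE 0.136, 95% confidence interval from -0.37 to 0.21), and this became 0.07 without sham replicate 1.

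The balance of Tgfb1 to Tgfb2 was compared as the log2 ratio of their counts in each rat, which needs no library scaling. Sham rats averaged -0.68 ± 0.467 and TBI rats -0.09 ± 0.324 (SD, n = 5 each), a difference of 0.59, or 1.51-fold. The two-sided exact permutation p was 0.0397 and 0.119 after Benjamini-Hochberg adjustment over the 3 ratios tested, where the smallest possible exact p is 0.00794. The groups overlapped, since sham replicates 1 and 3 (-0.25 and -0.28) were above TBI replicate 3 (-0.59). Without sham replicates 4 and 5 the difference was 0.55 (exact permutation p = 0.179). When 1 rat was left out the exact permutation p reached 0.0794.

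Tgfbr1, the type I receptor kinase, was measured at 13.98, 16.4, 19.5, 14.8 and 16.7 CPM in the sham rats. In the TBI rats it was 22.2, 19.4, 14.4, 18.2 and 16.5 CPM. TBI replicate 1 was the highest of all 10 rats, and the other TBI rats lay inside the sham range. The log2 change was 0.16 (SE 0.115, 95% confidence interval from -0.08 to 0.40). Tgfbr2, the type II receptor that binds the ligand first, was at 6.40, 5.64, 7.96, 5.51 and 3.81 CPM in sham rats. The injured rats had 6.70, 8.09, 5.10, 7.50 and 6.84 CPM. As for Tgfb1, sham replicate 3 was the highest sham rat and TBI replicate 3 the lowest TBI rat. The log2 change was 0.20 (SE 0.159, 95% confidence interval from -0.13 to 0.53).

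Tgfbr3, the co-receptor betaglycan that presents ligand to the signalling receptors, ranged from 6.53 to 8.34 CPM in sham rats and from 6.32 to 10.6 CPM in TBI rats. Only TBI replicates 1 and 2 exceeded the sham range. The log2 change was 0.14 (SE 0.135, 95% confidence interval from -0.14 to 0.43). The log2 ratio of Tgfbr2 to Tgfbr1 differed by 0.09 between the groups (two-sided exact permutation p = 0.675).

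Smad2, a receptor-regulated Smad, had the narrowest range of the 10 genes over all rats. It was between 9.44 and 10.7 CPM in sham rats and between 9.42 and 10.9 CPM in TBI rats. Its log2 change was 0.00 (SE 0.0883), with a 95% confidence interval from -0.18 to 0.19. Smad4, the shared partner, was between 18.8 and 20.5 CPM in sham rats and between 18.1 and 25.3 CPM in TBI rats. The TBI range enclosed the sham range, with TBI replicates 1 to 3 above it and replicates 4 and 5 below it. Its log2 change was 0.11 (SE 0.0962, 95% confidence interval from -0.09 to 0.31).

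Smad3, the other receptor-regulated Smad, behaved differently from Smad2 in its spread. In sham rats it was 13.8, 43.8, 36.0, 33.4 and 38.3 CPM. In TBI rats it was 27.1, 37.3, 38.3, 24.8 and 14.5 CPM. One rat of each group, sham replicate 1 and TBI replicate 5, was far lower than the rest of its group. The level covered a 3.18-fold range over the 10 rats, and the coefficient of variation was 34.6% in each group. The log2 change was -0.22 with an SE of 0.355 and a 95% confidence interval from -1.03 to 0.60, which includes a change of the size estimated for Tgfb1.

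Smad7, the inhibitory Smad, was between 12.7 and 19.0 CPM in sham rats and between 14.4 and 16.3 CPM in TBI rats, whose range lay wholly inside that of the sham rats. Its log2 change was 0.01 (SE 0.103, 95% confidence interval from -0.21 to 0.23). The log2 ratio of Smad7 to Smad3 differed by 0.22 between the groups (two-sided exact permutation p = 0.548).

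**Figure D2:**
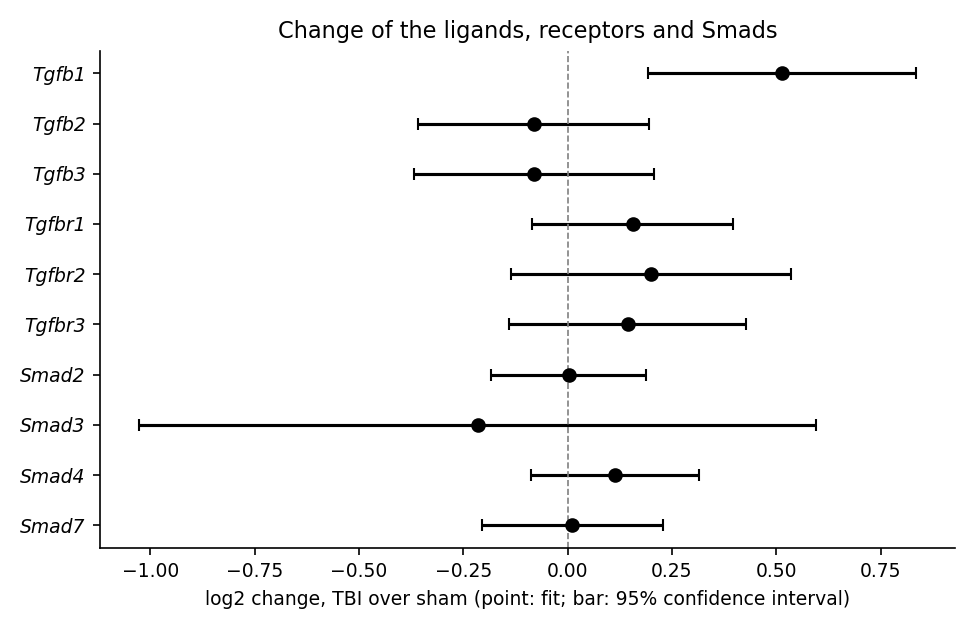
Fitted log2 change of TBI over sham (horizontal axis) for each of the 10 genes, with points for the fit and bars for the 95% confidence interval. The interval of Tgfb1, from 0.19 to 0.83, is the one that lies above 0, and that of Smad3 is the widest.

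The rows most like Tgfb1, Tgfbr2 and Smad3 over the 10 rats were looked up. The 3 rows whose log2 CPM followed Tgfb1 most closely over the 10 rats, among 8275 rows with a mean of at least 5 CPM, were Vsir (Pearson's r = 0.986, Spearman's rho = 0.988), Fcrl2 (r = 0.981) and Slc44a2 (r = 0.979). Vsir encodes the immune checkpoint receptor VISTA, which microglia express. The closest to Tgfbr2 were Lgmn (r = 0.956), a lysosomal protease, Adgrg1 (r = 0.953) and Lyz2 (r = 0.948), the lysozyme of macrophages. For Smad3 they were Ablim3 (r = 0.989), Lrpap1 (r = 0.980) and Prox1 (r = 0.966), a transcription factor that marks dentate granule cells. These are descriptions over 10 rats, in each of which the compared genes share a library and a dissection. They were picked as the highest of many values.

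The summed level of 12 microglial markers ranged from 247 to 370.0 CPM in sham rats and from 291 to 397 CPM in TBI rats, with sham replicate 3 the highest sham rat and TBI replicate 3 the lowest TBI rat. Of these markers, 5 of 12 had an unadjusted p under 0.05 in edgeR's quasi-likelihood test, all higher in TBI, among them Aif1, C1qa, Trem2 and C1qb. Of all rows, 4.89% were higher in TBI at that threshold. Relative to the summed microglial counts, the log2 ratio of Tgfb1 averaged -5.56 ± 0.0979 for sham and -5.31 ± 0.110 for TBI (SD, n = 5 each). That difference was 0.25 (two-sided exact permutation p = 0.0238, and 0.0714 adjusted over 3 such ratios), with the groups overlapping at TBI replicate 3. For Tgfbr2 the corresponding difference was -0.04 (exact permutation p = 0.754). These 3 ratios to marker sums were chosen after the values had been seen.

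The summed dentate granule cell markers were 68.9 CPM in sham replicate 1 and 86.9 CPM in TBI replicate 5, the same rats that were low in Smad3, and between 127 and 212 CPM in the others. Most of the mean sum was 1 gene, C1ql2, at 97.6 of 171 CPM in sham rats and 81.7 of 146 CPM in TBI rats. Relative to the summed dentate granule cell markers, the log2 ratio of Smad3 differed by -0.02 between the groups (exact permutation p = 0.857). Astrocyte markers were higher at an unadjusted p under 0.05 for 4 of 9 genes (Gfap, Vim, Aldh1l1 and S100b), against 4.89% of all rows. Of the 9, 7 had positive and 2 negative changes. Slc1a2 (0.06, SE 0.115), Slc1a3 (-0.0009, SE 0.0781) and Aldoc (-0.04, SE 0.0956) did not reach that threshold. The astrocyte sums ran from 3028 to 4031 CPM in sham rats and from 3323 to 4963 CPM in TBI rats. Sums of 10 meningeal and fibroblast markers did not overlap, at 154 to 175 CPM in sham rats and 188 to 209 CPM in TBI rats, but most of each sum was Ptgds, a prostaglandin synthase gene that was at 0.31 (SE 0.0820). Without Ptgds the sums overlapped, at 41.8 to 58.9 CPM in sham rats and 48.3 to 61.0 CPM in TBI rats. Pdgfra was the largest part of these remaining sums, averaging 33.4 CPM in sham and 30.4 CPM in TBI rats. Of the 10 listed genes, 4 had an unadjusted p under 0.05 in edgeR's quasi-likelihood test, all higher in TBI. They were Ptgds, Igf2 (0.48, SE 0.163), Col1a2 and Col1a1, and the list median was 0.37. Lum (-0.95, SE 0.683) and Pdgfra (-0.14, SE 0.0967) of that list had negative values, neither with an unadjusted p under 0.05. None of 9 endothelial, 8 pericyte, 8 neuronal and 5 tested dentate granule cell markers had an unadjusted p under 0.05 in that test. Higher in TBI at that threshold were 1 of 8 oligodendrocyte (Olig2), 1 of 6 choroid plexus (Folr1) and 1 of 7 CA3 markers (Prkcd). The part of cell composition in the level of Tgfb1 or of any other gene was not tested.

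**Figure D3:**
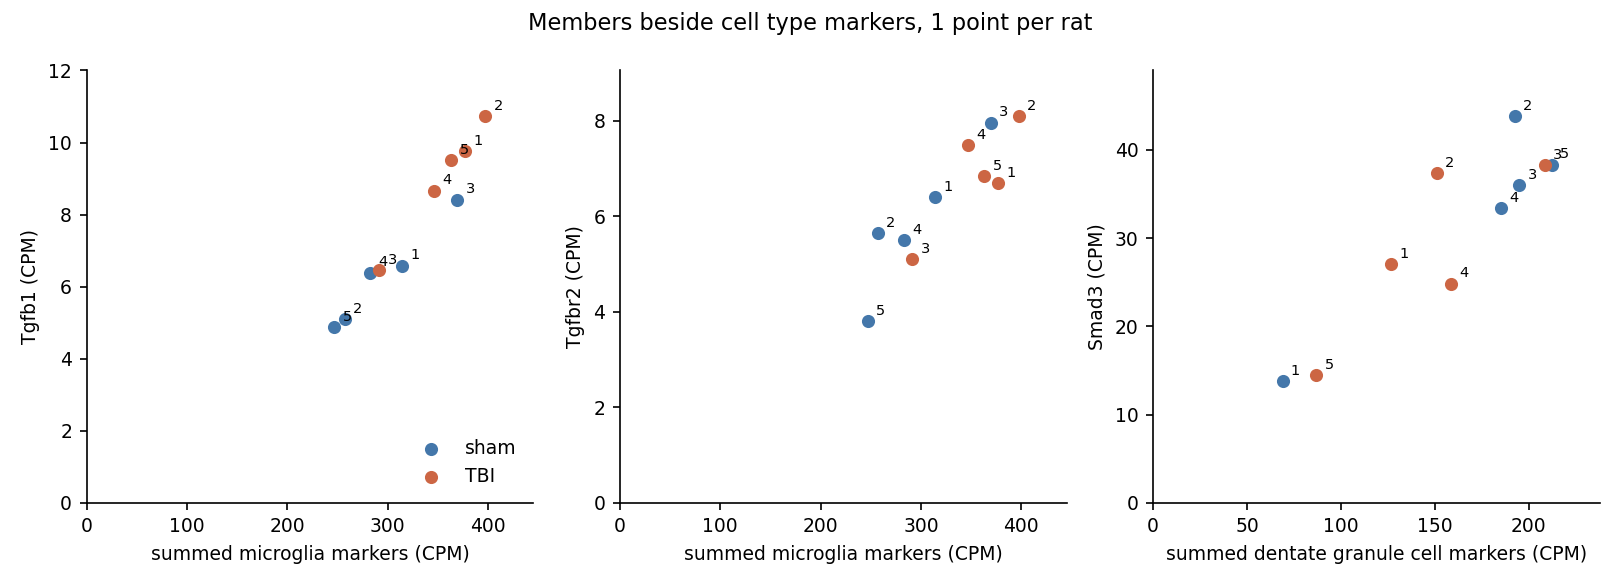
Tgfb1, Tgfbr2 and Smad3 (vertical axes, CPM) against the summed markers of microglia or dentate granule cells (horizontal axes, CPM), with 1 point per rat labelled by its replicate number. Sham replicate 1 and TBI replicate 5 are low on both axes of the Smad3 panel.

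The pathway around these genes was read from 101 further genes in 6 lists, of which 93 had a row and 87 were tested. An unadjusted p under 0.05 in edgeR's quasi-likelihood test was obtained for 17 of the 87 (19.5%), with 14 higher and 3 lower in TBI, against 4.89% and 3.00% of all rows. None passed the adjusted threshold. The lists were chosen with earlier results of these data known, so the comparison with all rows is not independent of those results. The median log2 change of the 87 genes was 0.05. The study's own list for its TBI model holds Id3 and Bmp6 as upregulated, with edgeR adjusted p under 0.05. That list comes from the same series and is no independent support. With the ribosomal RNA share as a covariate the count was 9 (10.3%, beside 4.42% of all rows), and without sham replicates 4 and 5 it was 10 (11.5%, beside 5.60% of all rows). In the reported fit the share of all rows, both directions together, was 7.89%.

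TGF-beta target genes held the most such genes, 8 of 23, all higher in TBI, with a list median of 0.19. Collagen genes were among them, with Col1a2 at 0.77 (SE 0.270) on 10 to 105 counts per library and Col1a1 at 0.43 (SE 0.182). Col3a1, also a collagen gene of this list, was at 0.07 (SE 0.246, edgeR unadjusted p = 0.765). The protease inhibitor Timp1 was at 0.82 (SE 0.289) on 8 to 85 counts per library. The smooth muscle protein Tagln was at 0.44 (SE 0.152) and the cell cycle inhibitor Cdkn1a at 0.48 (SE 0.189). Id3, an inhibitor of basic helix-loop-helix factors that is also a target of bone morphogenetic proteins, averaged 20.3 CPM ± 5.65 in the sham and 33.2 CPM ± 9.49 in the TBI group (SD, n = 5 each), which is 0.71 on the log2 scale. Its relative Id1 was at 0.34 (SE 0.129). Gadd45b, a stress-induced gene, was at 0.39. The matricellular gene Ctgf was at 0.38 (SE 0.231) and Tgfbi at -0.23 (SE 0.137), neither with an unadjusted p under 0.05. Col1a1 and Col1a2 also belong to the meningeal and fibroblast list.

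In the other lists fewer genes had an unadjusted p under 0.05. Among latency and activation genes there were 2 of 17, Thbs2 and Ltbp3. Thbs2, a thrombospondin, was at 0.70 (SE 0.248) on 4 to 39 counts per library, and its groups did not overlap. Ltbp3, a latent TGF-beta binding protein, was at 0.24 (SE 0.0840). Smad9, which transmits bone morphogenetic protein signals, was at 0.77 (SE 0.224) on 11 to 69 counts per library. Its unadjusted p was the smallest of all pathway genes (0.00277, adjusted 0.483, edgeR). The ligands Bmp6 (8.61 CPM ± 2.06 in sham and 12.2 CPM ± 2.26 in TBI rats, SD, n = 5) and Bmp4 were at 0.51 and 0.25. Tgif1, a repressor that binds Smads, was at 0.88 (SE 0.301) on 5 to 41 counts per library. Lower in TBI were Map3k7, the kinase TAK1, at -0.25, Usp15, a deubiquitinase acting on the pathway, at -0.20, and the type I receptor Acvr1c at -0.35.

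**Figure D4:**
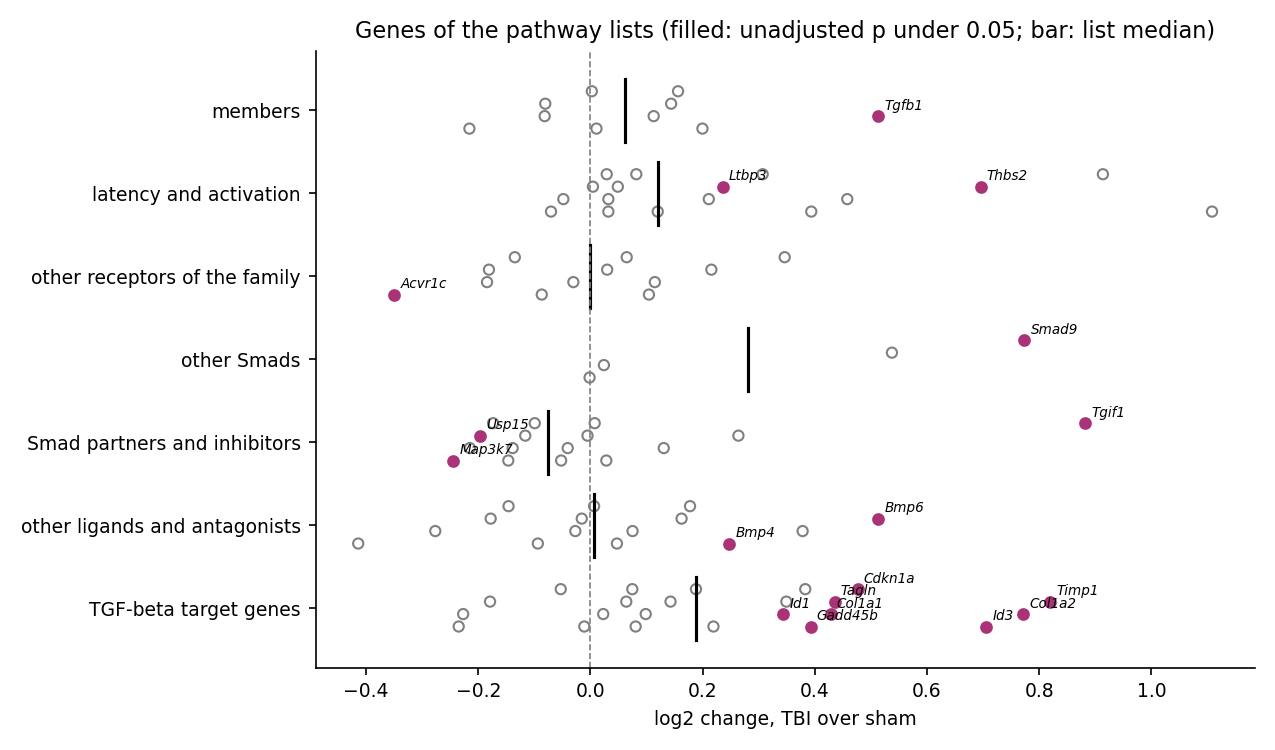
Log2 change of TBI over sham (horizontal axis) for each tested gene of the 10 named genes and of 6 pathway lists, filled where the unadjusted p was under 0.05, with a bar at each list's median. The 8 filled target genes all lie to the right of 0.

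The genes with the highest CPM in each list, a ranking that is not corrected for transcript length, were Id3 among the targets and 5 others, none of which had an unadjusted p under 0.05. Ltbp4 was at 0.05, Acvr1b at -0.09, Smad1 at 0.02, Fkbp1a at -0.14 and Gdf1 at 0.05. Gdf1 shares a transcript with Cers1, so its count is uncertain. Bhlhe40, the target highest in sham rats alone, was at 0.22 (SE 0.118).

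**Figure D5:**
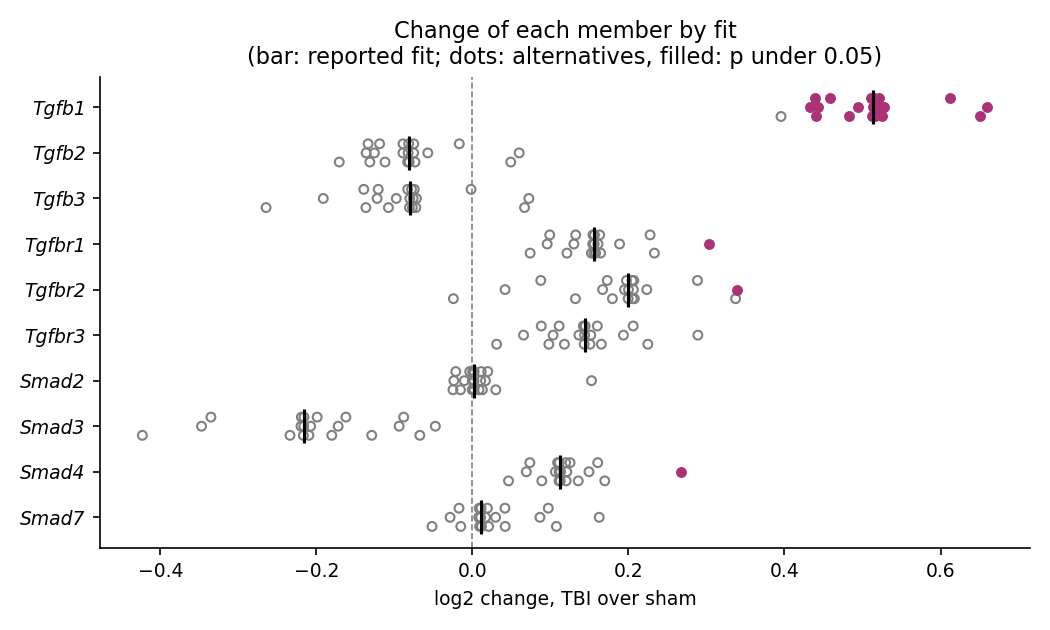
Log2 change of each of the 10 genes (horizontal axis) in the reported fit (bars) and in 20 alternative fits (points, filled where the unadjusted p was under 0.05). Tgfb1 is filled in 19 of 20 alternatives, while Smad2, Smad7, Tgfb2, Tgfb3 and Tgfbr2 have points on both sides of 0.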

How the data were processed

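Poly-A RNA gave single-end reads 36 bases long, and the submitters' processing notes name BWA and the rn4 build. The authors deposited raw counts per RefSeq RNA record, while the methods of the study name Ensembl transcripts, and strand use is not given in the sources used here. Symbols came from a RefSeq table of another assembly, used for names only (54.2% of rows matched).

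Rows with a total of at least 44 counts (30th percentile) were tested with edgeR 4.0.16 (TMM, robust quasi-likelihood F test, Benjamini-Hochberg adjustment) in R 4.3.3. Ratios used counts plus 0.5 and an exact permutation test over 252 splits. The test was tested on simulated data. None of the 45 pairs of libraries agreed within sampling noise. Alternatives used DESeq2 1.42.0, limma 3.58.1, other scalings and filters, and fewer rats. The labels give 5 sham rats and the methods 3 controls for mRNA profiling. Which 3 is not given in the sources used here, so all 5 were used, and the values could differ with fewer. The labels do not say how rats were grouped in processing, while the methods state that each animal was handled individually. The p-values set the difference between the groups against the spread between these rats.

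Besides the 10 genes, the text names the highest expressed gene of each pathway list and the 14 with the smallest unadjusted p. The highest was taken by mean over all rats, where the sham mean, used first, gave Bhlhe40 in place of Id3. Others were chosen after their values were seen (Gadd45b, Acvr1c, Usp15, Bhlhe40, Ctgf, Tgfbi, Col3a1). Some listed genes are not reported here by name. The genes and lists were chosen with earlier results of these data known.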

Additional observations from a re-analysis of the deposited data

How the results depend on the processing

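Over 20 alternative fits, 0 of the 10 genes passed the adjusted threshold. The number with an unadjusted p under 0.05 was 3 with library sizes taken outside ribosomal RNA (Tgfb1, Tgfbr1 and Smad4, where the median of all rows moved to 0.14), 0 with the ribosomal RNA covariate, and 1 to 2 when each rat was left out (2 without sham replicate 3, where Tgfbr2 joined Tgfb1). The log2 change of Tgfb1 stayed between 0.40 and 0.66. The groups of 1 gene, Tgfb1, no longer overlapped without TBI replicate 3, so leaving out a rat gave 0 to 1. Without that rat the groups did not overlap for 2.59% of all rows, against 0.923% with it. Pathway genes under 0.05 numbered 9 with the covariate (4.42% of all rows) and 10 without sham replicates 4 and 5 (5.60% of all rows). They numbered 14 to 19 when each rat was left out (5.18% to 11.4% of all rows, the highest without sham replicate 3). Over the 20 alternatives, the unadjusted p was not under 0.05 in 8 for Col1a1, 6 for Map3k7, 4 for Bmp4, and 3 each for Tagln and Timp1. This held in 2 each for Col1a2, Cdkn1a, Id1, Id3, Ltbp3 and Thbs2, and in none for Smad9, Bmp6 and Tgif1.

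Directions turned for genes near 0. Outside ribosomal RNA, Tgfb2 was 0.0600, Tgfb3 0.0669, Acvr1b 0.0705 and Fkbp1a 0.0212. With the covariate, Tgfbr2 was -0.0243, Smad2 -0.0152 and Ltbp4 -0.0191. Smad2 was -0.000258 with DESeq2 and -0.00346 without sham replicates 4 and 5, where Ltbp4 was -0.000418. Smad1 was -0.0131 with limma voom. When each rat was left out in turn, the changes ran from -0.171 to 0.0492 for Tgfb2, -0.139 to 0.0724 for Tgfb3, -0.0249 to 0.0300 for Smad2, -0.0517 to 0.0973 for Smad7, -0.00760 to 0.127 for Ltbp4, -0.0789 to 0.0734 for Smad1 and -0.0416 to 0.124 for Gdf1. The Tgfb1 to Tgfb2 difference was 0.55 without sham replicates 4 and 5 and 0.419 to 0.720 when each rat was left out, and that of Tgfbr2 to Tgfbr1 was -0.0899 and -0.0647 to 0.184. The cause of these differences was not tested. No paired analysis was possible because the replicate numbers only follow the order of the samples.

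A further fit without both rats numbered 3 was run once and is not used. These rats had been picked because sham replicate 3 had the highest and TBI replicate 3 the lowest Tgfb1 and microglial levels of their groups, and choosing rats by the outcome enlarges the difference by construction. In that fit Tgfb1 passed the adjusted threshold, which is therefore no evidence of a change.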
